A study of Mus musculus with 5 samples.

Results

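Interferon-stimulated genes are the genes that cells switch on when interferon reaches its receptor. Their response was followed in the ear skin of mice that lack Cd1d, a lipid-presenting molecule needed by natural killer T cells, and of control mice. The 38 genes were taken by symbol from a fixed list and matched by Entrez identifier to rows of the read count table, which holds 27179 genes. All 38 were present and all 38 passed the filter on low counts.

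RNA sequencing had been done on ear skin of mice on the B6 background, with 2 libraries from Cd1d -/- mice (KO) and 3 libraries from Cd1d +/- mice. The genotype tag of the Cd1d +/- samples reads WT, so they are called controls here, and they may carry a mutant allele. Age, treatment and the way the mutant line was made are not given in the labels. Whether the libraries are from different animals is not stated either, so p-values measure the spread between these 5 libraries, which may be technical.

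Interferons act through receptors that activate the kinases Jak1, Jak2 and Tyk2. Type I and type III interferons act on genes that carry a DNA element called the interferon-stimulated response element, which is bound through Irf9. Interferon-gamma acts on genes with another element, the gamma-activated site. The induced genes include sensors of viral nucleic acid, proteins that block viral RNA or translation, proteins that hold viruses at membranes, guanylate-binding proteins that attack intracellular microbes, and chemokines that attract lymphocytes. Keratinocytes express one interferon of their own, interferon kappa, and skin shows a low interferon-stimulated level at rest.

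Total counts were 45270805 to 54596686 in KO libraries and 32353957 to 79160005 in control libraries, so 1 read corresponded to between 0.0119 and 0.0303 CPM (read counts scaled by library size and TMM factors). Cd1d1 had 61 and 48 counts in KO skin, against 557, 757 and 182 counts in control skin. Its log2 fold change was -2.67 (SE 0.29, edgeR quasi-likelihood test, adjusted p = 0.0152, with 0.0935 without control replicate 1 and 0.336 without KO replicate 1). The keratinocyte genes Krt5 and Krt14 averaged 7071 and 6828 CPM in KO skin, against 6388 and 6089 CPM in control skin, so these defining markers of epidermis were present in both groups. Hair keratin and sheath markers stood apart in 1 library, with a summed 606 CPM in KO replicate 1 and 14.9 CPM in KO replicate 2, against 11.4 to 21.5 CPM in control libraries.

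The response element can be read in the promoters of many of these genes, and a few that hold it are shown as examples. None of the genes in this first list was among the 5 called as higher or lower in KO skin. Promoter windows of 300 bases (250 before to 50 after an annotated start, RefSeq, GRCm38.p6) were at hand for 28 of the 38 genes. The letters GAAANNGAAA, the core of the response element, were searched on both strands, and overlapping matches were kept. They occurred in the windows of 18 of these 28 genes, and in 19 of 32 windows (59.4%), against 3.44% of all 32851 windows. The letters TTCNNNGAA, which read the same on both strands and form the core of a gamma-activated site, occurred in 6 of the 32 windows (18.8%), against 8.3% of all windows. Capitals mark the GAAANNGAAA match in each line, written on the strand that holds it.
Isg15 (chr4:156200860-156200911, minus strand): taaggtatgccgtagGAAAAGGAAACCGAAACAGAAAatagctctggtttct
Ifit3 (chr19:34583358-34583397, minus strand): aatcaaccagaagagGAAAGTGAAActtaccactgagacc
Ifit3b (chr19:34607754-34607793, minus strand): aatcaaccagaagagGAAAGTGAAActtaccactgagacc
Ifit1 (chr19:34640770-34640809, minus strand): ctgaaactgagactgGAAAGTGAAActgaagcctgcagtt
Oas1a (chr5:120907515-120907560, minus strand): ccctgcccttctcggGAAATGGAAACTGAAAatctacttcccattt
Oas1g (chr5:120887601-120887646, minus strand): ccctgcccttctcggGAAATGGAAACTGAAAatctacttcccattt
Gbp3 (chr3:142559984-142560029, minus strand): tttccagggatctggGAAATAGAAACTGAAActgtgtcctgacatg
Gbp7 (chr3:142530268-142530307, minus strand): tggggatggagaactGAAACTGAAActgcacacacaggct
Isg15 held 3 overlapping matches between 78 and 57 bases before its start, written here as positions -78 to -57. Both Ifit3 windows around a match were identical over 40 bases to those of Ifit3b, and the Oas1a window was identical over 46 bases to that of Oas1g.

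The calls given below depended on the libraries and the fit used. Among the genes called as higher or lower in KO skin, Bst2 held 2 overlapping matches at positions -130 to -115, while neither window of Ifit2 held one. Their promoters are shown whole as examples of a window with the match and of windows without it. Both Ifit2 windows lie at the start of its annotated span (34550550 to 34576534), and the rest of that span was not searched.
Bst2 (chr8:71537423-71537722, minus strand): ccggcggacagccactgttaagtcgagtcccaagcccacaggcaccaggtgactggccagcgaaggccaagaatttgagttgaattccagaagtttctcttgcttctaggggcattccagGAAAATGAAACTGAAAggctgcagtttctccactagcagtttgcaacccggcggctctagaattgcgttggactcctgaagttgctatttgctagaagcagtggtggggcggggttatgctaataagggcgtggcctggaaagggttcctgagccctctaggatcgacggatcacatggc
Ifit2 (chr19:34550838-34551137, plus strand): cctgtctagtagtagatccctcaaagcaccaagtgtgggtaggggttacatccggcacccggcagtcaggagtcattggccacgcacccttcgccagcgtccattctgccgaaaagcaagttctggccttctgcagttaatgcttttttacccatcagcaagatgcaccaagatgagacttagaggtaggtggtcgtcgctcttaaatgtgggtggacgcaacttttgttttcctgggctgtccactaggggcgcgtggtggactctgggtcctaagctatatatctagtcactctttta
Ifit2 (chr19:34550444-34550743, plus strand): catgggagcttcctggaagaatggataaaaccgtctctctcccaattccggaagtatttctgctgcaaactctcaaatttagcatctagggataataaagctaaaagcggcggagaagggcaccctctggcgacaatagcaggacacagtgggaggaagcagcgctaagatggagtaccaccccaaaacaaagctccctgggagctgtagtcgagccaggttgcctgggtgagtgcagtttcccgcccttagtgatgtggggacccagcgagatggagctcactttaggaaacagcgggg
The window of Ifi35, which like Bst2 was called as higher in KO skin, held no GAAANNGAAA match either. The letters TTCNNNGAA occurred 1 time each in the windows of Bst2 and Ifi35 and in the Ifit2 window that is given last, and not in the other Ifit2 window. Windows were not at hand for Dhx58, Ifi27, Ifi27l2a, Mx1, Mx2, Oas2, Parp14, Rtp4, Usp18 and Zbp1. A match describes these letters only and shows no binding.

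The 38 genes did not move together. Ifi27l2a, Ifi27, Ifi35 and Bst2 rose in KO skin, Ifit2 fell, and 33 genes did not pass an adjusted p of 0.05 (edgeR quasi-likelihood test, Benjamini-Hochberg over 17472 genes). Of all tested genes 3.76% passed, 2.71% as higher and 1.05% as lower in KO. The 4 of 38 higher lay above that share, while the single lower gene was too few to set against it. The list was chosen with earlier results of these data known, so this excess is no test of the set. Ifi27 and Ifi27l2a, among the 4, also overlap on opposite strands. The 4 higher genes all have transcripts under 1500 bases, where 15.1% of all tested genes rose, and 0 of 37 genes were higher with offsets for length and GC content (edgeR, 7 at an unadjusted p under 0.05 in either direction). Over all genes the calls were 474 higher and 183 lower, and 268 higher and 974 lower with scaling to library size alone. The median log2 fold change, KO over control, was 0.03 over the 38 genes and -0.02 over all tested genes. There were 20 positive and 18 negative values, ranging up to 1.06 and down to -0.93. KO and control libraries did not overlap for 12 of the 38 genes, 8 with KO above and 4 with KO below. The background was 39.9% of tested genes without overlap (19.9% with KO above, 20.0% with KO below), so this count was not above it.

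**Figure D1:**
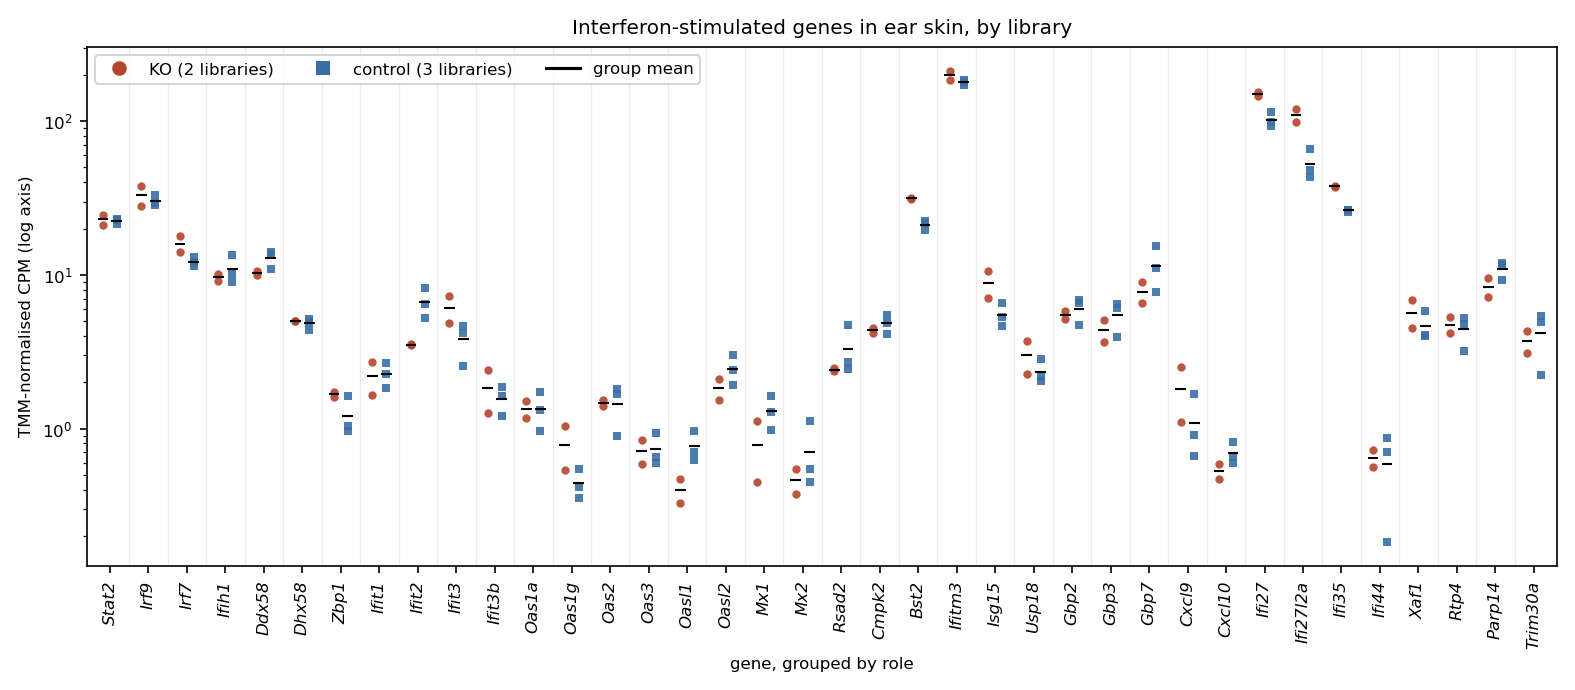
Level of each of the 38 genes in every library, as TMM-normalised CPM on a log axis, with KO libraries (circles) left of control libraries (squares) and a line at each group mean. KO circles sit above all control squares for Ifi27l2a, Ifi27, Ifi35 and Bst2, and below all of them for Ifit2, while most other genes overlap.

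Ifi27l2a, whose annotated span holds that of Ifi27, and Ifi27 encode small membrane proteins induced by interferon, Ifi27 being known at the mitochondrion. Ifi27l2a (Entrez 76933, chromosome 12, 103433873 to 103443680 on GRCm38) had 121 and 98.9 CPM in KO skin, against 43.2, 66.2 and 48.0 CPM in control skin. Both KO libraries lay above every control library. The log2 fold change was 1.06 (SE 0.18, edgeR adjusted p = 0.0203), a level 2.09-fold higher. Ifi27 (Entrez 52668, chromosome 12, 103434189 to 103440245) had 156 and 147 CPM in KO skin, against 93.5, 115 and 98.9 CPM in control skin, again without overlap. Its log2 fold change was 0.56 (SE 0.12, edgeR adjusted p = 0.0379). These genes overlap on opposite strands, and no source says whether strand was used in counting, so their reads cannot be told apart with certainty. Their best aligned stretch of transcript was 69.8% identical over 248 bases.

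Bst2, also called tetherin, holds budding viruses at the cell surface and is carried by plasmacytoid dendritic cells even at rest. Bst2 (Entrez 69550, chromosome 8, 71534255 to 71537472) had 31.5 and 31.3 CPM in KO skin, against 19.6, 22.5 and 21.6 CPM in control skin. The KO libraries lay close together and above all controls, with a log2 fold change of 0.57 (SE 0.12, edgeR adjusted p = 0.0345). Of 6 markers of plasmacytoid dendritic cells 1 rose, Ly6d (log2 fold change 0.61, SE 0.14, edgeR adjusted p = 0.042), a gene that keratinocytes also express and that made up most of the list's sum of 2039 to 2189 CPM in KO libraries and 1350 to 1618 CPM in control libraries. Ly6d has a transcript of 744 bases, and with length and GC offsets its log2 fold change was 0.13 and did not pass (edgeR adjusted p = 0.627). Siglech, the defining marker of that cell type, had 0.92 and 0.607 CPM in KO skin, against 0.688, 1.161 and 0.576 CPM in control skin, so its groups overlapped at a low level. In bulk tissue, fewer cells of a type and less RNA per cell cannot be told apart.

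Ifi35 encodes an interferon-induced leucine zipper protein. Ifi35 (Entrez 70110, chromosome 11, 101448412 to 101458701) had 37.2 and 37.9 CPM in KO skin, against 25.8, 26.6 and 26.6 CPM in control skin. The KO libraries lay above all controls, with an SD of 0.488 CPM in KO (n = 2) and 0.45 CPM in control (n = 3). Its log2 fold change was 0.51 (SE 0.11, edgeR adjusted p = 0.0363). The span of Ifi35 overlaps Gm11626 on the other strand.

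Ifit2 binds RNA and inhibits translation, and it was the 1 gene of the 38 that fell. Ifit2 (Entrez 15958, chromosome 19, 34550550 to 34576534) had 3.48 and 3.55 CPM in KO skin, against 6.47, 8.23 and 5.25 CPM in control skin. Every KO library lay below every control library, on 152 to 178 counts in KO and 173 to 631 counts in control. The log2 fold change was -0.93 (SE 0.22, edgeR adjusted p = 0.0474), a level 1.9-fold lower. Ifit1, Ifit3 and Ifit3b lie beside it on chromosome 19, and none of them passed.

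The 5 calls rested on which libraries were in the fit. None of the 5 passed without control replicate 1 (edgeR, adjusted p between 0.119 and 0.222) or without KO replicate 1 (between 0.343 and 0.377), although log2 fold changes stayed between 0.50 and 0.95 for the 4 genes that rose and at -0.94 and -0.91 for Ifit2. Without KO replicate 2 the adjusted p was 0.0488 for Ifi27l2a and 0.203 to 0.263 for the other 4. Without control replicate 2 Ifit2 had an adjusted p of 0.0528, and the other 4 passed. All 5 passed without control replicate 3, as did Ddx58 and Gbp7, both lower. Over all genes tested, leaving out KO replicate 1 left 0.00554% past the threshold and leaving out KO replicate 2 left 0.706%. For control replicates 1, 2 and 3 the shares were 0.0%, 7.8% and 18.8%. The same 5 genes passed with DESeq2 size factors (3.91% of all genes) and without a count filter (4.77%). They also passed with the replicate number as a block (11.7%) and with the DESeq2 test (9.71%). Only controls have a replicate 3, so the block takes that library out of the contrast. The block is thus close to leaving out control replicate 3 (Ifit2 at -1.05 with the block and -1.06 without that library). With scaling to library size alone (7.11%), Ifi27l2a and Ifit2 passed. With the block and length and GC offsets together (0.999%), 0 of the 38 passed (edgeR, 4 at an unadjusted p under 0.05).

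None of the 3 transcription factors of the interferon signal passed (edgeR, 1 at an unadjusted p under 0.05). Stat2, a subunit of the factor that binds the response element, had 24.7 and 21.2 CPM in KO skin, against 23.2, 22.9 and 21.3 CPM in control skin. The log2 fold change was 0.03 (SE 0.13, edgeR adjusted p = 0.917). Irf9, the DNA-binding subunit of the same factor, had 38.02 and 27.9 CPM in KO skin, against 28.7, 33.2 and 29.4 CPM in control skin, with overlap. Irf7, the factor that amplifies type I interferon production, had 14.0 and 17.9 CPM in KO skin, against 11.5, 12.1 and 13.0 CPM in control skin. Its groups did not overlap, but its log2 fold change of 0.39 (SE 0.15) did not pass (edgeR adjusted p = 0.167).

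The 4 sensors of viral nucleic acid gave 0 calls (edgeR, 0 at an unadjusted p under 0.05). Ddx58, which encodes the RNA sensor RIG-I, had 10.6 and 9.97 CPM in KO skin, against 14.2, 13.6 and 10.9 CPM in control skin. The groups did not overlap, and the log2 fold change was -0.33 (SE 0.16, edgeR adjusted p = 0.249). Ifih1, which encodes the long-RNA sensor MDA5, stood at -0.18 (SE 0.18) on the log2 scale, and Dhx58, which encodes their regulator LGP2, had 0.06 (SE 0.18). Zbp1, a sensor of Z-form nucleic acid, had 0.45 (SE 0.31). The smallest adjusted p of the 4 was that of Ddx58.

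Among the proteins that act on RNA and translation, Ifit3 had a positive value that did not pass, beside its neighbour Ifit2 that fell. Ifit3 had 7.28 and 4.86 CPM in KO skin, against 2.56, 4.64 and 4.19 CPM in control skin, with no overlap but only a small gap between KO replicate 2 and control replicate 2. Its log2 fold change was 0.68 (SE 0.28, edgeR adjusted p = 0.181), and that of its near-copy Ifit3b was 0.21 (SE 0.33). The 2 transcripts were 97.8% identical over 1700 bases, so reads could have been split between them. Ifit1, which recognises RNA with a foreign cap, had 2.72 and 1.66 CPM in KO skin, against 1.84, 2.67 and 2.27 CPM in control skin, and a log2 fold change of -0.04 (SE 0.29).

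The oligoadenylate synthetases make the messenger that activates RNase L, and their reads were few. Oasl1, a family member without that enzyme activity, had 24 and 14 counts in KO skin (0.47 and 0.327 CPM), against 53, 54 and 32 counts in control skin (0.628, 0.704 and 0.971 CPM). KO lay below all controls, with a log2 fold change of -0.91 (SE 0.42, edgeR adjusted p = 0.238). Oas1g, with 53 and 23 counts in KO and 30, 32 and 18 counts in control, had a log2 fold change of 0.88 (SE 0.44, edgeR adjusted p = 0.272), and its groups overlapped. Its transcript was 97.5% identical to that of Oas1a over 1860 bases, which makes the split between the 2 genes uncertain. Oas1a, Oas2, Oas3 and Oasl2 had log2 fold changes of -0.02, 0.03, -0.01 and -0.43, with adjusted p of at least 0.407.

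Of the other effectors at membranes and on viral particles, Ifitm3, which blocks fusion of viruses in endosomes, had the highest level per transcript length. It had 186 and 213 CPM in KO skin, against 179, 185 and 171 CPM in control skin, with a log2 fold change of 0.16 (SE 0.12, edgeR adjusted p = 0.458). Rsad2, which encodes viperin, had 2.47 and 2.36 CPM in KO skin, against 2.44, 4.73 and 2.70 CPM in control skin. Its neighbour Cmpk2, a nucleotide kinase, had a log2 fold change of -0.15 (SE 0.20). The dynamin-like Mx1 and Mx2, known to be defective in most laboratory mouse strains, had log2 fold changes of -0.73 (SE 0.43) and -0.55 (SE 0.50) on 16 to 48 counts in KO libraries and 37 to 125 counts in control libraries.

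Isg15, the ubiquitin-like protein that is attached to others during the response, had 10.7 and 7.05 CPM in KO skin, against 5.35, 6.57 and 4.64 CPM in control skin. KO lay above control without overlap, with a log2 fold change of 0.68 (SE 0.22, edgeR adjusted p = 0.103). It passed with DESeq2 (adjusted p = 0.0442) and, by edgeR, without control replicate 2 (adjusted p = 0.031). Usp18, the protease that removes Isg15 and dampens the receptor, had a log2 fold change of 0.35 (SE 0.28) with overlapping groups.

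The guanylate-binding proteins Gbp2, Gbp3 and Gbp7, which coat and rupture the vacuoles of microbes, had negative values that did not pass. Gbp7 had 9.03 and 6.51 CPM in KO skin, against 11.02, 15.5 and 7.77 CPM in control skin, so the groups overlapped. The log2 fold changes were -0.15 (SE 0.20) for Gbp2, -0.34 (SE 0.25) for Gbp3 and -0.56 (SE 0.26) for Gbp7. Over all 9 tested genes named Gbp, 8 values were negative, the median was -0.34, and 0 passed (edgeR, 1 at an unadjusted p under 0.05). The background was 9148 negative values among 17472 tested genes. Gbp3 and Gbp7 transcripts were 80.5% identical over 1695 bases.

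The chemokines that draw activated T cells through Cxcr3 had opposite signs. Cxcl9 had 2.51 and 1.10 CPM in KO skin, against 0.901, 1.67 and 0.667 CPM in control skin, with a log2 fold change of 0.72 (SE 0.44, edgeR adjusted p = 0.368). Cxcl10 had 0.587 and 0.467 CPM in KO skin, against 0.593, 0.652 and 0.819 CPM in control skin. Its KO libraries lay just below the lowest control, with a log2 fold change of -0.36 (SE 0.39, edgeR adjusted p = 0.634). The remaining 5 genes, Xaf1, Rtp4, Ifi44, Parp14 and Trim30a, had log2 fold changes between -0.39 and 0.29 and adjusted p of at least 0.239. Of these, Parp14, a mono-ADP-ribosyltransferase, had the largest size.

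**Figure D2:**
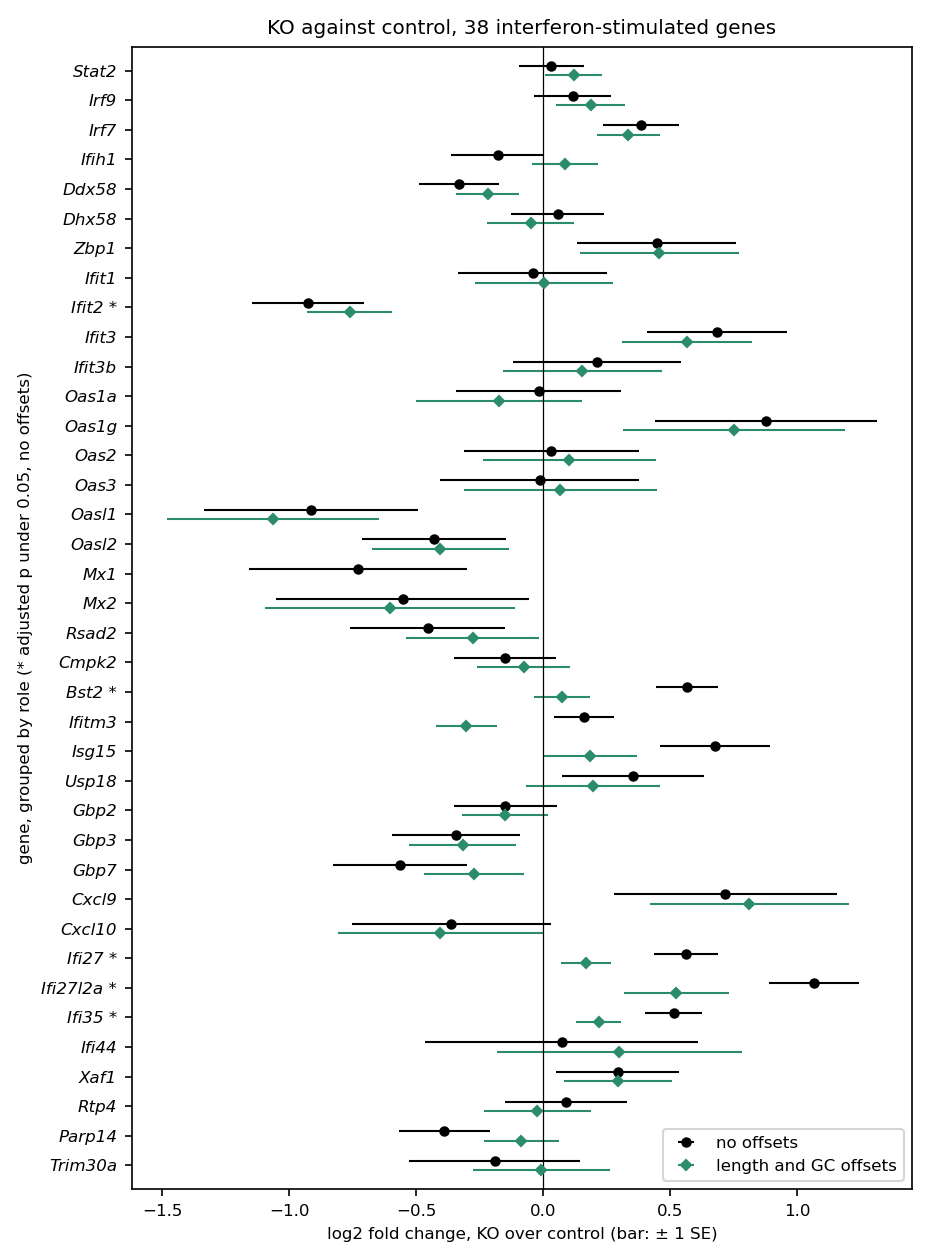
Log2 fold change of KO over control with 1 standard error for each of the 38 genes, without offsets (circles) and with offsets for the length and GC trend of each library (diamonds, 37 genes). The 4 genes that rose move towards 0 with offsets, to between 0.07 and 0.52, and Ifit2 moves from -0.93 to -0.76.

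The 4 genes that rose have short transcripts. The longest annotated transcript had 463 bases for Ifi27l2a, 792 for Bst2, 977 for Ifi27 and 1362 for Ifi35, against a median of 2656 bases over the 37 genes with a known transcript. Across those 37 genes, which are not independent replicates and share the same 5 libraries, Spearman's rho between log2 fold change and length was -0.57. Over all 15809 tested genes with a transcript it was -0.55. Of the 6 genes under 1500 bases, a limit chosen after seeing the values, 4 rose and Isg15 and Ifitm3 did not pass. All 6 values were positive, with a median log2 fold change of 0.56. Among all tested genes under 1500 bases 15.1% rose and 0.0484% fell, and their median was 0.36. Of the 31 genes at or above that limit, 0 rose (edgeR, 3 of 31 at an unadjusted p under 0.05 in either direction) and 1 fell, against 0.968% and 1.24% of all such genes.

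With offsets that remove each library's trend on length and GC content, Ifit2 alone of the 38 genes passed (log2 fold change -0.76, edgeR adjusted p = 0.0311). In that fit 3.59% of 15809 genes passed, 0.74% lower and 2.85% higher in KO. Ifi27l2a had a log2 fold change of 0.52 (adjusted p = 0.243), Ifi35 0.22 (0.198), Ifi27 0.17 (0.371) and Bst2 0.07 (0.761). Isg15 had 0.19, and Ifitm3 had -0.30, the other sign from its value without offsets. The median over the 37 genes was 0.07.

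**Figure D3:**
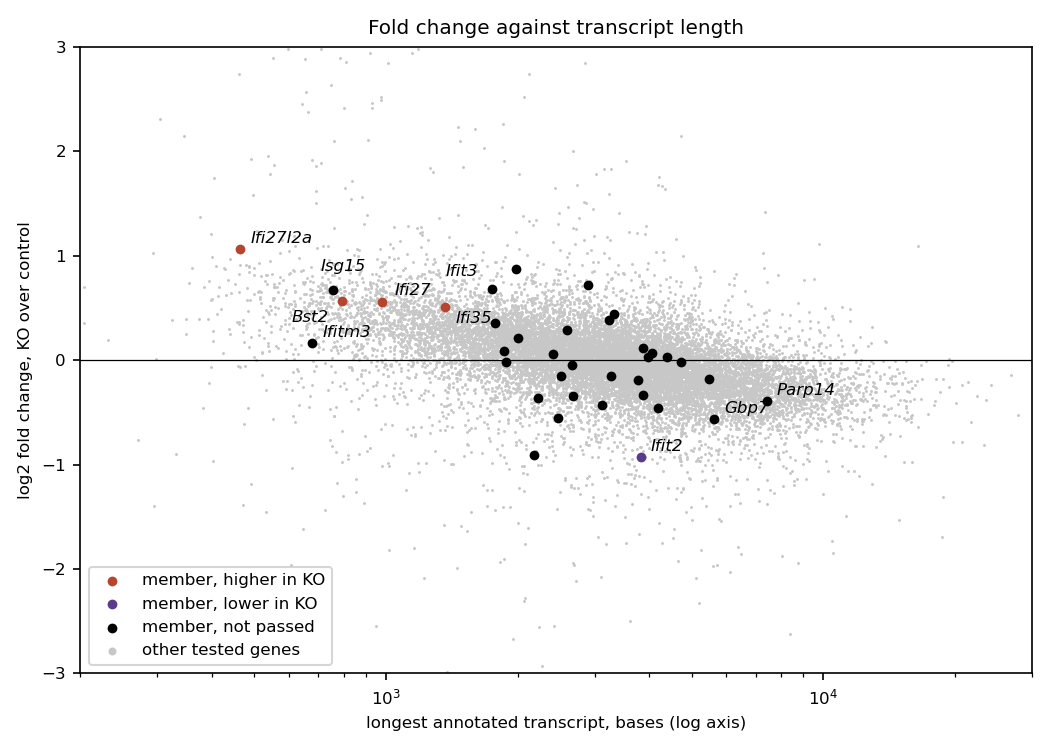
Log2 fold change of KO over control against the longest annotated transcript in bases (log axis), with all tested genes in grey and the 38 genes coloured by their call (Mx1 has no matched transcript, and 86 grey genes lie outside the axes). The grey cloud slopes down with length, and the 4 genes that rose lie at its short end, while Ifit2, at 3818 bases, lies below the cloud's centre.

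Within each group the 38 genes differed between libraries as a set. KO replicate 1 was above KO replicate 2 for 29 of 38 genes (76.3%), against 48.7% of all tested genes, with a median difference of 0.30 on the log2 scale against -0.01. Among the controls, replicate 2 held the highest value for 28 of 38 genes (73.7%), against 38.7% of all tested genes. The median deviation from the mean of all libraries, as log2(CPM + 0.1), was 0.09 and -0.15 in KO replicates 1 and 2, against -0.12, 0.23 and -0.14 in control replicates 1, 2 and 3. The highest and the lowest of these library medians thus lay in control replicate 2 and KO replicate 2, and the groups overlapped. Over all tested genes the same medians lay between -0.01 and 0.01. KO replicate 1 is also the library with the high hair keratin sum, and the part of that difference in these values was not tested.

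**Figure D4:**
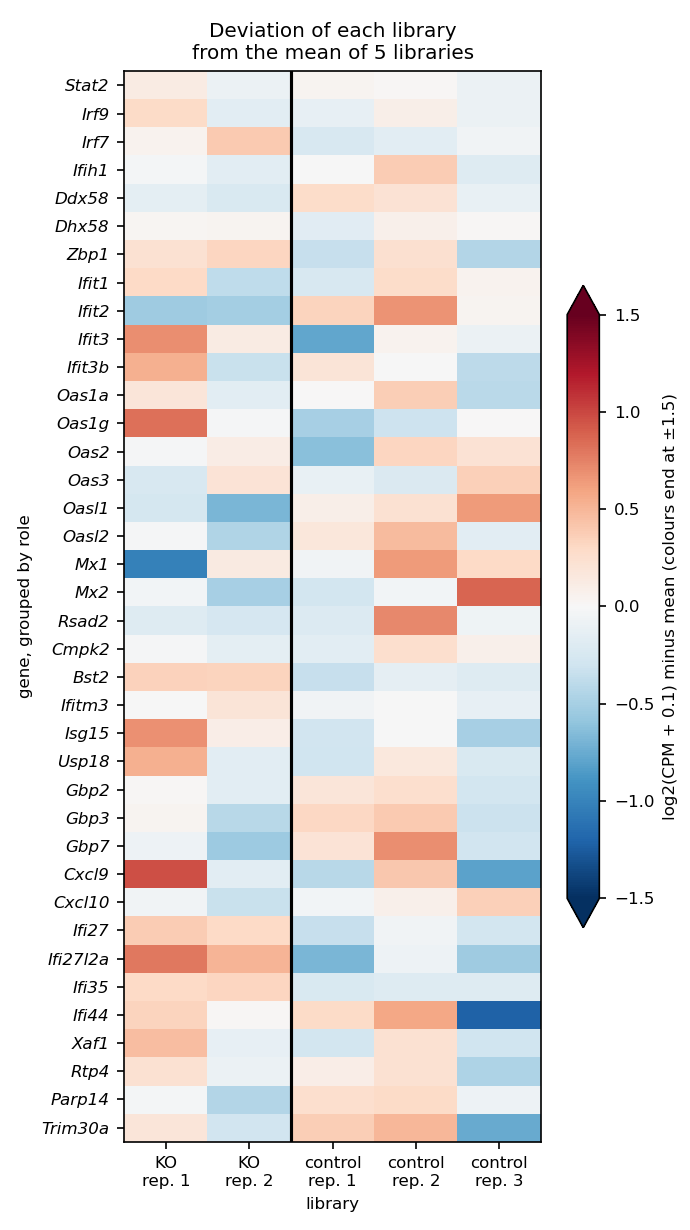
Deviation of each library from the mean of all 5 libraries for each of the 38 genes, as log2(CPM + 0.1), with KO libraries left of the line and controls right of it. Control replicate 2 is red for most genes and KO replicate 2 blue for most, while the 4 genes that rose are red in both KO libraries and blue in all 3 controls.

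Levels per transcript length spread widely. As CPM per kilobase of the longest transcript, averaged over the 5 libraries, Ifitm3 stood at 276, Ifi27l2a at 163, Ifi27 at 125, Bst2 at 31.9, Ifi35 at 22.6 and Isg15 at 9.06. These 6 highest are also the 6 shortest. The order depends on the choice of the longest transcript, which for Irf7 had 3240 bases on a span of 141263183 to 141266499. The lowest were Oas3 at 0.153 and Ifi44 at 0.15. Ifi27l2a spanned 214 to 261 CPM per kilobase in KO libraries and 93.2 to 143 in control libraries, while Ifi27 spanned 150 to 159 in KO and 95.7 to 117 in control. These neighbours in the order therefore overlapped in controls and not in KO.

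Other genes of the pathway were listed by function. Of 136 listed genes 108 could be tested; 1 rose, 0 fell (edgeR, 11 at an unadjusted p under 0.05, and 4 passing with DESeq2) and 107 did not pass, against the background of 3.76%. The median log2 fold change was -0.07. The 1 that rose was Rnaseh2c, a subunit of the RNase H2 that removes RNA from DNA and so limits interferon production. It had 74.7 and 69.9 CPM in KO skin, against 48.5, 37.4 and 44.2 CPM in control skin, with a log2 fold change of 0.74 (SE 0.13, edgeR adjusted p = 0.0231). Its transcript has 1126 bases, and with length and GC offsets it had 0.32 (edgeR adjusted p = 0.108). It did not pass without control replicate 1 or without either KO replicate.

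Interferons themselves were barely covered. None of 21 ligand genes passed the count filter, and 14 of them, Ifng and most Ifna genes among them, had 0 counts in all 5 libraries, a result that leaves room for 0.0356 to 0.091 CPM depending on the library (3 counts, counting error only). Ifnk, for the interferon of keratinocytes, had 2 and 4 counts in KO skin, against 10, 36 and 3 counts in control skin. Control replicate 2, with 36 of these reads, was also the control with most of the highest values of the 38 genes. Whether these go together was not tested.

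All 6 interferon receptor genes were tested and 0 passed (edgeR, 1 at an unadjusted p under 0.05), with log2 fold changes between -0.23 and 0.33. Ifngr2, a chain of the interferon-gamma receptor, had 58.9 and 60.0 CPM in KO skin, against 45.3, 48.6 and 47.9 CPM in control skin, without overlap. Its log2 fold change was 0.33 (SE 0.11, edgeR adjusted p = 0.117), and it passed with length and GC offsets (0.39, edgeR adjusted p = 0.023). Ifnlr1, for the receptor of type III interferon, had -0.23 (SE 0.15).

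Kinases, transcription factors and brakes of the pathway gave 0 calls among 20 tested genes (edgeR, 3 at an unadjusted p under 0.05). Jak2 had a log2 fold change of -0.37 (SE 0.13, edgeR adjusted p = 0.129) and Irf8, a factor of myeloid cells, -0.38 (SE 0.16). Socs1, an inhibitor of the receptor kinases that interferon itself induces, had 22.2 and 24.7 CPM in KO skin, against 13.0, 15.7 and 18.0 CPM in control skin. The groups did not overlap, and its log2 fold change of 0.59 (SE 0.16) lay just outside the threshold (edgeR adjusted p = 0.0625). Socs1 passed without a count filter, with the DESeq2 test and with the replicate block. It also passed without control replicate 2 and without control replicate 3. It was not called with length and GC offsets, with scaling to library size alone or without control replicate 1. Ptpn6, a phosphatase acting on the same kinases, had 0.22 (SE 0.11).

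Interferon-stimulated genes outside the 38 had values of both signs. Of 45 tested, 0 passed (edgeR, 3 at an unadjusted p under 0.05), 22 values were positive and 23 negative, and the median was -0.04. Oas1c had a log2 fold change of 0.52 (SE 0.14, edgeR adjusted p = 0.0726), and Ifitm2, a relative of Ifitm3, 0.32 (SE 0.12). Among GTPases and chemokines induced by interferon-gamma, 15 of 18 tested values were negative, with a median of -0.36, and 0 passed (edgeR, 1 at an unadjusted p under 0.05). Over all tested genes 9148 of 17472 values were negative, and this list shares Gbp genes with the Gbp count above. Gbp9 had 1.86 and 2.19 CPM in KO skin, against 4.64, 3.73 and 2.64 CPM in control skin, with a log2 fold change of -0.87 (SE 0.27, edgeR adjusted p = 0.101). Ciita, the regulator of MHC class II genes, had -0.44 (SE 0.20).

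**Figure D5:**
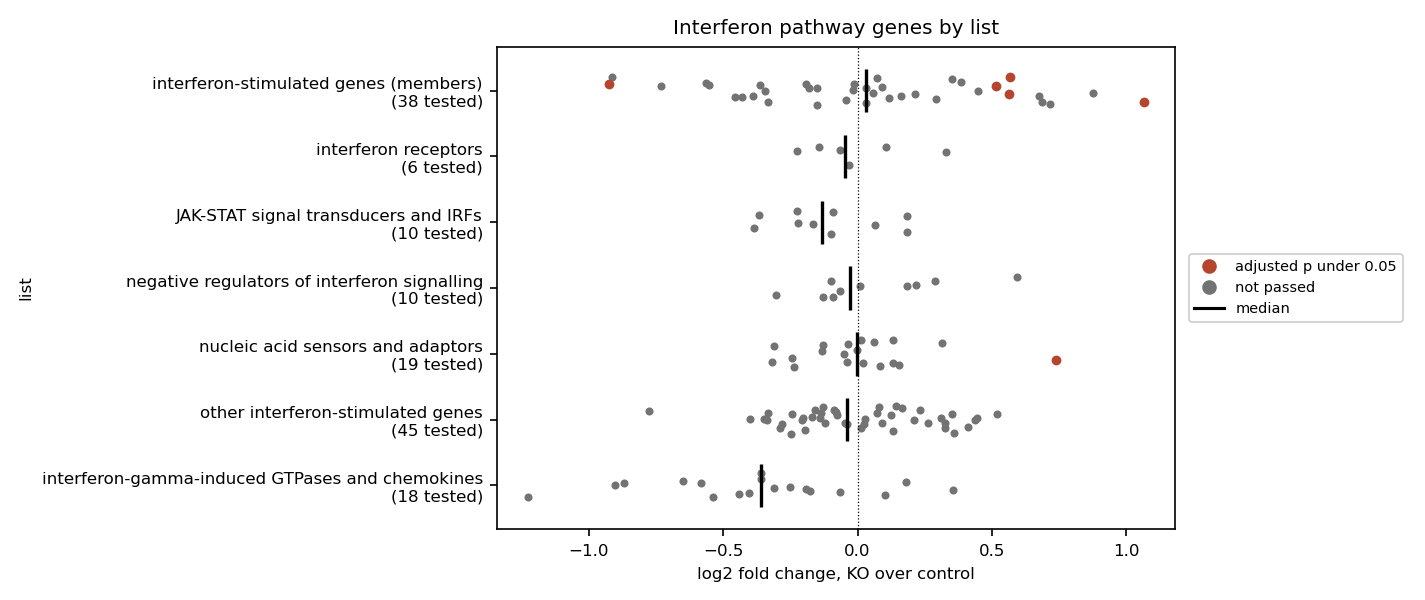
Log2 fold change of KO over control for each tested gene of the 38 and of 6 other interferon pathway lists, with genes past the threshold in red and the median of each list as a line. Medians lie between -0.36 and 0.03, and 1 gene outside the 38, Rnaseh2c at 0.74, is red.

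Markers of other cell types were read beside the 38 genes. Of 6 striated muscle markers 3 rose and all 6 had KO above control without overlap (sums of 4591 and 5209 CPM in KO, 3421 to 3652 CPM in control). The background was 2.71% of tested genes higher and 19.9% with KO above without overlap. Among the 6, Myh4 had a log2 fold change of only 0.09 (edgeR adjusted p = 0.684). The 3 that rose, Mylpf, Tnnc2 and Tnni2, have transcripts of 700 to 895 bases, and with length and GC offsets their log2 fold changes were 0.16, 0.22 and 0.23 and did not pass (edgeR adjusted p between 0.183 and 0.577). Of 5 adipocyte markers 1 rose, Cfd, with 922 bases and a log2 fold change of 0.71, against 0.20 with those offsets (edgeR adjusted p = 0.741). Adipocyte sums were 984 to 1125 CPM in KO and 564 to 940 CPM in control. Of 5 endothelial markers 0 passed (edgeR, 3 at an unadjusted p under 0.05), with sums of 135 to 143 CPM in KO and 156 to 179.5 CPM in control. No macrophage, T cell, NK cell, neutrophil, dendritic and Langerhans cell, fibroblast or keratinocyte marker passed (edgeR, with 2, 4, 0, 0, 0, 1 and 2 at an unadjusted p under 0.05 in that order). Macrophage sums were 357 to 421 CPM in KO and 330 to 368 CPM in control, and T cell sums were 80.6 to 90.5 CPM in KO and 65.8 to 74.0 CPM in control. Of the 10 T cell markers 8 had positive and 2 negative log2 fold changes. Trac, the lowest, had 6 and 5 counts in KO skin, against 34, 49 and 14 counts in control skin. Its log2 fold change was -2.05 (SE 0.55, edgeR adjusted p = 0.0662, with 0.0403 when scaled to library size alone). Other markers passed with length and GC offsets but not without them. These were Ckm of muscle (log2 fold change 0.37, edgeR adjusted p = 0.0416) and Fabp4 of adipocytes (0.72, edgeR adjusted p = 0.0301). The endothelial Cdh5 (-0.42, edgeR adjusted p = 0.0342) and Emcn (0.46, edgeR adjusted p = 0.0393) also did, with opposite signs. For Fabp4 the longest transcript had 4231 bases on a span of 10204342 to 10208616, so its offset was that of a long gene. Its log2 fold change was 0.53 without offsets, and a shorter transcript was not tried. Ly6g, the defining neutrophil marker, had 0 counts in every library, and Ncr1, which defines NK cells, had 8 counts in control replicate 2 and 0 elsewhere. The part of these cells in the values of the 38 genes was not tested.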

How the data were processed

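Ear skin RNA of 2 KO and 3 control libraries was counted per gene. The deposited table holds raw read counts, not normalized, for 27179 Entrez genes. Per the submitters' processing notes, the tools used by the authors included FastQC, HISAT2 2.0.4 and DESeq2 1.16.1, with GRCm38 (mm10). No source used here gives the counting program, its strand setting or its treatment of shared reads, which could change the values of overlapping or near-identical genes.

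From these counts, genes were named from RefSeq (25275 matched), filtered with filterByExpr (17472 left) and scaled with TMM. KO was tested against control with edgeR 4.0.16 (robust quasi-likelihood F test, R 4.3.3) and Benjamini-Hochberg adjustment at 0.05. Standard errors were derived from the F statistic. Longest transcripts and GC content came from GENCODE M21 for 90.5% of tested genes and for 37 of the 38. For offsets, smooth trends per library were fitted with mgcv 1.9.3. Alternatives were DESeq2 1.42.0, other scalings, no count filter, offsets, the replicate number as a block, and leaving out each library, so that a KO library left alone takes its spread from the control libraries. The fit was checked on simulated data. Libraries of a group differed beyond sampling noise (chi-square per degree of freedom 24 to 80.7).

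Full values are given for genes that passed, genes without overlap between groups, the 6 highest per length, and, from the pathway lists, genes that passed or the 2 with the smallest p. Other examples were added. The 38 genes, the lists and this rule were chosen with earlier results of these data known.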

Additional observations from a re-analysis of the deposited data

How the results depend on the processing

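Of the 38 genes, 22 kept the sign of their log2 fold change in every alternative, among them the 5 called genes. The 16 that did not were not called in any of the fits run. DESeq2 size factors moved none of the counts by over 1.5 times. Of the 38 genes 5 passed, against 2 with scaling to library size alone, 1 with length and GC offsets, 0 with the replicate number as a block and these offsets together (edgeR, 4 at an unadjusted p under 0.05), and 0 to 7 with a replicate left out. With library size alone the median of all genes was -0.16, and Bst2, Ifi27 and Ifi35 had adjusted p of 0.0621, 0.0647 and 0.0766. The count over all genes was 657 (474 higher, 183 lower). It was 1242 with library size alone (268 higher, 974 lower), 1036 without a count filter, 1696 with DESeq2, 2037 with the replicate block, 158 with the block and offsets, and 0 to 3277 with a replicate left out. Leaving out control replicate 1 gave the 0, with 2253 genes under an unadjusted p of 0.05 in edgeR. The count of listed pathway genes was 1, and 2 with library size alone, 2 without a count filter, 4 with DESeq2, 5 with the block, 0 with the block and offsets, and 0 to 11 with a replicate left out. The median log2 fold change of the 38 genes lay between -0.13 and 0.15 over all alternatives. The median deviations of the control libraries had an SD of 0.21, which is a different measure and gives no test of these medians. Replicate numbers gave no sign of pairing (correlation of deviations 0.016 and 0.0641). The block, which takes control replicate 3 out of the contrast, added Gbp7 as lower. Genes under 1 CPM, such as Oas3, Ifi44 and Cxcl10, had standard errors of 0.39 to 0.54, so only large differences were detectable at this depth.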

Other observations

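Members of the Oas1 family outside the 38 genes differed widely in level, a pattern noticed after the values were seen. Oas1f had 164 and 171 CPM in KO skin, against 125, 132.5 and 147 CPM in control skin, and Oas1c had 15.8 and 13.1 CPM in KO skin, against 10.3, 9.61 and 10.3 CPM in control skin. Per kilobase of the longest transcript, Oas1f averaged 99.9 CPM and Oas1c 5.16 CPM, while Oas1a averaged 0.71 CPM and Oas1g 0.293 CPM. Oas1d had 0 counts in both KO libraries, against 5, 0 and 0 counts in control libraries, and Oas1h 0 counts in both KO libraries, against 8, 1 and 0. In the Ifitm family, Ifitm2 had 348 and 346 CPM in KO skin, against 256, 277 and 300 CPM in control skin. Ifitm1 stood at 5.17 and 7.16 CPM in KO skin, against 4.85, 3.99 and 5.73 CPM in control skin. In the edgeR fit of all 5 libraries none of these genes passed among those tested, while Oas1c passed with the DESeq2 test and Oas1c, Oas1f and Ifitm2 passed in edgeR without control replicate 3. The Oas1 genes resemble each other, so the counting could have moved reads between them.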
